A study of Arabidopsis thaliana with 8 samples.

Results

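SWEET17 (AT4G15920) and AT3G59340 are a pair of Arabidopsis thaliana genes for membrane transport proteins whose transcripts were much less abundant in dark-grown seedlings given ethylene for 4 h than in seedlings left in air. They were chosen by name, as 2 of 13350 genes that the array annotation names alone on a probe set, and each has 1 such probe set. The choice rested on their place among the 8 largest decreases of the ethylene comparison, so the fall itself is given here as a description without a test. All seedlings were wild-type Col-0, germinated in the dark and frozen 3 days old. The 4 air samples had 72 h in the dark without added ethylene, and the 4 ethylene samples had 68 h in air followed by 10 ppm ethylene for 4 h. Samples came from 2 experiments with 2 replicas of each group, named here by experiment and replica (air 1-1 to ethylene 2-2). No label says that replicas were separate cultures, so p-values measure only the spread between these samples, which may be technical.

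SWEET proteins are sugar transporters that let sugars move through a membrane down their gradient. SWEET17 and its close relative SWEET16 sit in the membrane of the vacuole, the large storage compartment of plant cells. SWEET17 is known to carry fructose across it, mainly in roots and also in leaves and vascular tissue. Vacuolar invertase splits stored sucrose into glucose and fructose, which such carriers can then release into the cytosol or store. AT3G59340 is annotated as a solute carrier family protein, and the reference gene table gives it no name beyond its locus number. What it carries is not stated in the sources used here.

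The SWEET17 probe set had intensities of 2839.1, 3427.4, 6215.6 and 4428.7 on air 1-1, 1-2, 2-1 and 2-2. On the ethylene arrays in the same order it had 804.4, 618.9, 1099.7 and 565.9. Every ethylene array was below every air array, and the lowest air value was 2.58 times the highest ethylene value. Over all 15922 probe sets tested, 6.29% had all ethylene arrays below all air arrays. The mean went from 4228 ± 1479 in air to 772.2 ± 241.1 in ethylene (SD, n = 4). On the log2(intensity + 16) scale this was a difference of −2.41 (SE 0.28), or a 5.33-fold lower level. This scale is used for all log2 values and folds below and slightly understates changes of dim probe sets.

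The AT3G59340 probe set had intensities of 1212.9, 895.2, 1503.2 and 1637.2 on the air arrays and 166.4, 178.0, 409.7 and 312.4 on the ethylene arrays, in the same order. Again no ethylene array reached the lowest air array, which lay 2.19 times above the highest ethylene value. Means were 1312 ± 329.6 in air and 266.6 ± 116.1 in ethylene (SD, n = 4). The difference was −2.29 (SE 0.32), a 4.88-fold lower level. The dimmest 30% of probe sets were left out of the tests, and the lowest mean log2 value that passed was 8.05. In ethylene AT3G59340 averaged 8.05 as well, with 2 of its 4 arrays above that limit, so it was tested through its air values, which averaged 10.34. SWEET17 was above that limit on all 8 arrays. Detection calls were not used here, so how much of the AT3G59340 signal in ethylene is background is unknown, and its fold is less well fixed than that of SWEET17.

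**Figure D1:**
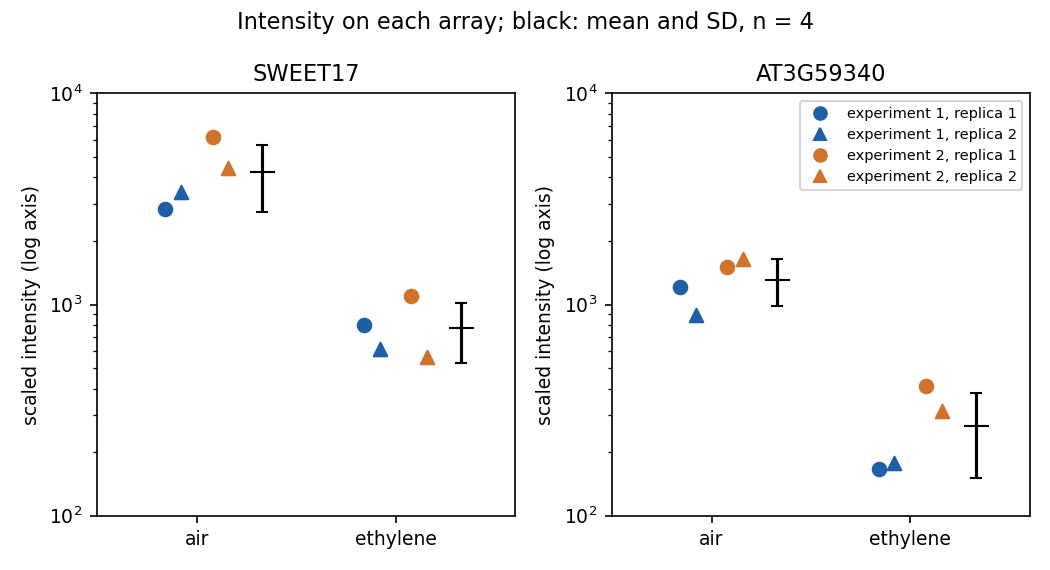
Scaled intensity (log axis) of SWEET17 and AT3G59340 on each of the 8 arrays, by group, with the colour giving the experiment, the shape the replica, and black marks the mean and SD of 4 arrays. For both genes the ethylene points lie below all air points, and for AT3G59340 the experiment 2 points lie above the experiment 1 points in both groups.

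Arrays that share an experiment and replica number gave a range of folds. For SWEET17 the level was lower by 3.48-fold in pair 1-1, 5.42-fold in 1-2, 5.59-fold in 2-1 and 7.64-fold in 2-2. For AT3G59340 the folds were 6.74, 4.70, 3.57 and 5.03 in the same order. The pair with the smallest fold for SWEET17 had the largest for AT3G59340. Pairing by replica number was a choice made here, as the labels tie air to ethylene arrays only by experiment. In the order of ethylene differences over 8546 tested named genes, SWEET17 held position 5 from the largest decrease and AT3G59340 position 8. AT5G41900 (−2.77) and AT4G18280 (−2.33) stood on either side of SWEET17. AT4G36610 stood just before AT3G59340 (−2.32), and AT3G50400, at −2.29, came just outside the 8 largest.

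The size of the fall in each experiment came from a limma model that fitted the 4 combinations of experiment and group. Both genes were chosen with the ethylene difference in each experiment in view, so these values are also given without a test. SWEET17 was 4.34-fold lower with ethylene in experiment 1 and 6.53-fold lower in experiment 2, log2 differences of −2.12 and −2.71. The effect in experiment 2 minus that in experiment 1 was −0.59 (SE 0.41). For AT3G59340 the order was the other way round, with −2.49 in experiment 1 and −2.08 in experiment 2. That contrast was 0.41 (SE 0.44), and both of its experiment 1 ethylene values lay under the filter limit. Over all tested probe sets, 0 passed a limma test of this contrast and 5.76% had an unadjusted p under 0.05.

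The level itself could also be compared between experiments, a contrast that played no part in choosing the genes. Averaged over air and ethylene, AT3G59340 was 1.73-fold higher in experiment 2 than in experiment 1. On the log2 scale that is 0.79 with an SE of 0.22 (limma adjusted p = 0.0166). The shift was 0.58 in air and 0.99 in ethylene. The ethylene shift sets 2 values under the filter limit (166.4 and 178.0) against 2 not far above it (409.7 and 312.4), so the average and its test rest in part on values near that limit. Each experiment 2 array was above both experiment 1 arrays of its group. How many of all probe sets show this order was not counted, so it adds no support. Of all tested probe sets, 18.2% were higher in experiment 2 and 12.4% lower, so a difference of this kind was common. The call ended without air 1-2 (adjusted p = 0.0614), air 2-1 (0.0589), air 2-2 (0.0821) or ethylene 2-1 (0.0604). SWEET17 had a shift of 0.45 (SE 0.21, limma adjusted p = 0.114), with 0.75 in air and 0.16 in ethylene. It passed only without ethylene 2-2, the dimmest ethylene array of this gene (0.69, adjusted p = 0.0171). Scaling each array to 1 median moved the median shift of all tested probe sets from 0.07 to −0.07. AT3G59340 then had 0.65 and still passed (adjusted p = 0.0345), and SWEET17 had 0.31.

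SWEET17 belongs to a family of 17 genes, and 16 of them had a probe set that names them alone. Apart from SWEET17, 7 were bright enough to be tested and 8 were under the filter. None of the 7 passed the ethylene test, against 4.11% of all tested probe sets, and their median difference was −0.13 beside 0.01 over all probe sets. Differences ran from −0.71 for SWEET16 to 0.60 for SAG29, which is SWEET15. All 7 had air and ethylene values that overlapped, while 10.5% of all tested probe sets had groups apart.

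SWEET2, another SWEET protein of the vacuole, had the smallest p of the other SWEET genes tested. It differed by −0.59 (SE 0.21, limma adjusted p = 0.203, or 0.0510 with the experiment as a block). SWEET16, the close relative of SWEET17 at the vacuole, was singled out after its values were seen. Its intensities were 3943.0, 5216.0, 3350.3 and 2551.7 on air 1-1, 1-2, 2-1 and 2-2, and 3151.8, 2730.7, 1749.0 and 1603.2 on the ethylene arrays. Within each experiment both ethylene arrays were below both air arrays, but experiment 1 in ethylene overlapped experiment 2 in air. The difference was −0.71 (SE 0.27, limma adjusted p = 0.231). It passed with the experiment as a block (adjusted p = 0.00355) and not with the replicas as a random block (adjusted p = 0.486). The random block leaves a shift shared by both groups of an experiment in the error. The experiment block removes that shift but takes replicas as independent. With the experiment block 11.7% of all probe sets passed, and SWEET16 was the only 1 of the 7 to do so. SWEET11, which exports sucrose for loading into the phloem, differed by −0.13 (SE 0.50), with values from 19665 to 76124 in air and from 21425 to 62031 in ethylene. SWEET1, SWEET3 and SWEET13 had differences of 0.21, −0.47 and 0.47.

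The 8 family members under the filter had mean intensities of 67.5 to 239.0 in air and 76.7 to 214.0 in ethylene. They were SWEET4, AtVEX1 (SWEET5), SWEET6, SWEET7, SWEET8, SWEET9, SWEET10 and SWEET14, several of which are known for roles in flowers and pollen. Their means were higher in ethylene for 4 of them and lower for 4, and the groups overlapped for all 8. At such levels a change could not be measured.

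**Figure D2:**
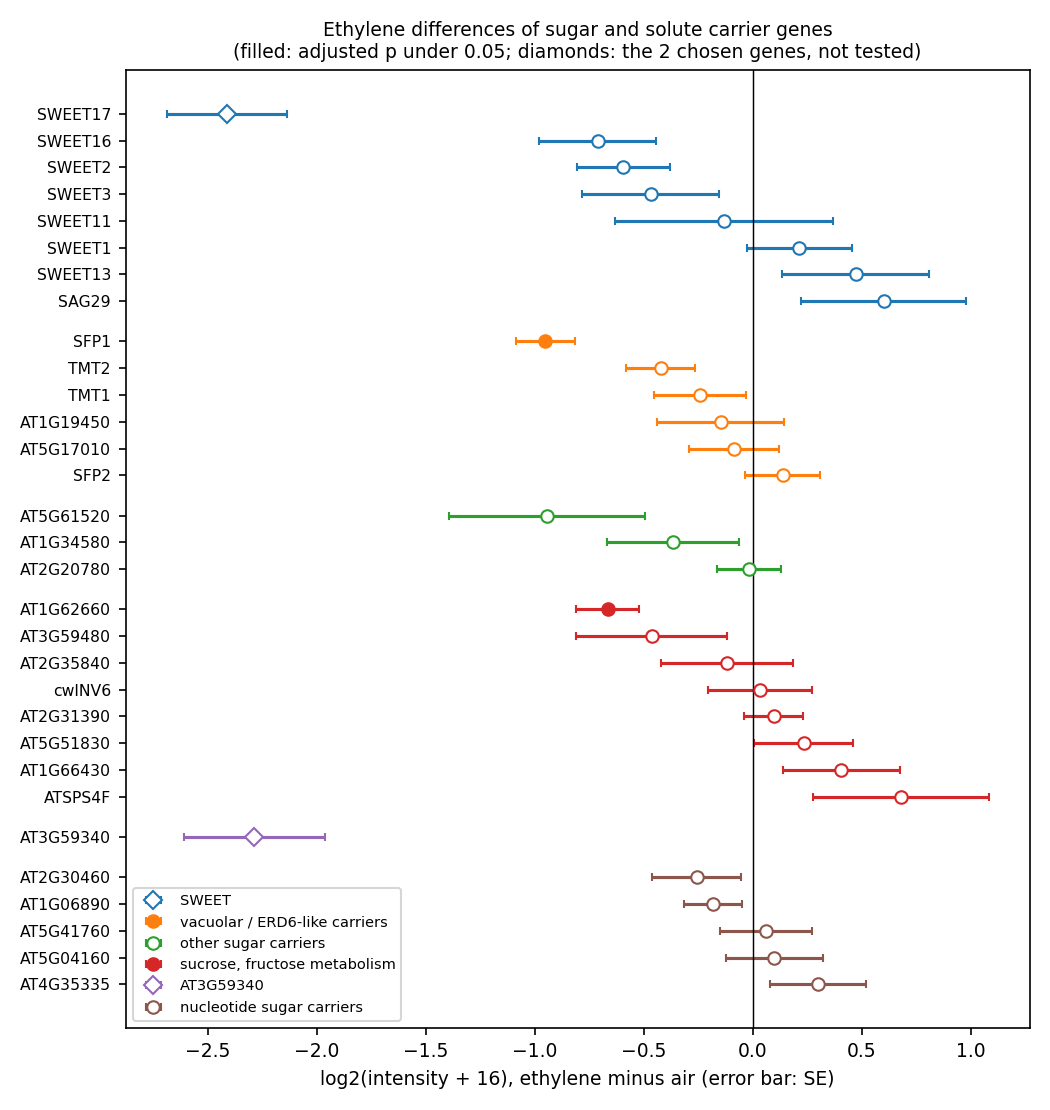
Ethylene minus air difference of log2(intensity + 16), with SE, for the 31 tested genes of the carrier and sugar metabolism lists, grouped by list; filled symbols had a limma adjusted p under 0.05 and open diamonds are SWEET17 and AT3G59340, which were not tested. The diamonds lie at −2.41 and −2.29, and the lowest other gene in the plot is SFP1 at −0.95.

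The other genes of sugar transport and sugar use were described from lists of 122 genes, of which 44 had a probe set of their own and 29 could be tested. Of these 29, 0 rose and 2 fell, where 1.56% of all tested probe sets rose and 2.55% fell. With the replicas as a random block 1 of the 2 calls was lost, that of AT1G62660 (adjusted p = 0.142 with this estimated correlation). In the main test 6.90% of the 29 were called in either direction, against 4.11% of all tested probe sets. Blocked by experiment, 0 rose and 3 fell, where 4.33% and 7.35% of all probe sets did, or 10.3% against 11.7% in either direction. These shares are near the background, and the medians by list lay between −0.37 and 0.06.

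The smaller p of the 2 was that of SFP1, a sugar carrier of the ERD6-like group, some of whose members act at the vacuole. It had 8928.1, 8257.6, 9700.7 and 10134.3 in air and 5463.4, 4773.1, 4500.2 and 4378.0 in ethylene, with no overlap. Over all tested probe sets 6.29% had all ethylene arrays below all air arrays, and of the 29 list genes 2 did. For SFP1 ethylene minus air was −0.95 (SE 0.13, limma adjusted p = 0.00264), and it passed under all 20 alternatives run, with adjusted p from 7.79e-05 to 0.0185. SFP2, a close homologue, differed by 0.14 (SE 0.17, adjusted p = 0.836). Of the vacuolar monosaccharide carriers, which load sugars into the vacuole, TMT1 and TMT2 differed by −0.24 and −0.42 and did not pass. TMT3 was under the filter. AT5G17010 and AT1G19450, other genes on the list of vacuolar sugar carriers, were at −0.09 and −0.15.

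AT1G62660, which encodes a vacuolar invertase that releases fructose and glucose from sucrose, was the other gene that fell. Its intensities were 28623, 31752, 32754 and 35414 in air and 19209, 17552, 20887 and 23521 in ethylene, again with no overlap. The same separation held for 6.29% of all tested probe sets. Ethylene minus air was −0.67 (SE 0.15, limma adjusted p = 0.0293). This call was less stable. It ended with the replicas as a random block (0.142), in experiment 2 alone (0.0669), without an intensity trend (just above the threshold) and when 1 of 6 arrays was left out (0.0526 to 0.0971), air 1-1 and ethylene 2-2 being the exceptions. With the experiment as a block its adjusted p was 0.000611. Among the enzymes that use fructose, the fructokinase genes AT2G31390, AT1G66430, AT5G51830 and AT3G59480 had differences of 0.10, 0.41, 0.23 and −0.47, and none passed. A further fructokinase gene, AT4G10260, was under the filter, with 18.3 to 97.8 in air and 179.1 to 267.4 in ethylene. Only 267.4 lay above the filter limit of about 249.4 in intensity, so a change could not be measured. The remaining tested genes of sucrose metabolism, cwINV6, ATSPS4F and AT2G35840, differed by 0.03, 0.68 and −0.12 and did not pass.

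Of 30 sugar and polyol carriers of the plasma membrane and related groups, 3 could be tested, and none passed. With 4.11% of all tested probe sets passing, this says little for so few genes, here and for the nucleotide sugar transporters below. The smallest p was that of AT5G61520, a monosaccharide carrier, at −0.94 (SE 0.45, limma adjusted p = 0.391). A further 3 were under the filter, with overlapping groups. Among them AT5G26250 had 142.6 to 240.9 in air and 10.3 to 188.9 in ethylene, levels at which a change could not be measured. Of 21 nucleotide sugar transporters, which supply the Golgi apparatus with sugars for wall polysaccharides and belong to the same wide superfamily of carriers as AT3G59340, 5 were tested and none passed. Their differences lay between −0.26 for AT2G30460 and 0.30 for AT4G35335, with AT1G06890, at −0.18 (SE 0.13, adjusted p = 0.654), having the smallest p. The closest relatives of AT3G59340 in its own group, AT3G59310, AT3G59320 and AT3G59330, lie beside it in the genome and had no probe set that names them alone, so they are not analysed here.

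The other SWEET genes were compared between experiments in the same way. Of the 7 others tested, 4 were lower in experiment 2 (SWEET1, SWEET3, SWEET11 and SWEET16) and none was higher, against 12.4% and 18.2% of all probe sets. SWEET11 had the largest shift, −1.56 (SE 0.12, limma adjusted p = 2.48e-06), and SWEET16 had −0.72 (SE 0.14, adjusted p = 0.00267). SWEET3 was at −0.87 and SWEET1 at −0.60. The SWEET1 call ended without air 2-1 (adjusted p = 0.0544), and the other 3 held under all 15 alternatives. SWEET17 and SAG29, at 0.67, were the tested SWEET genes with a positive shift. SAG29 passed only without air 2-1 (adjusted p = 0.0357). No test compared SWEET17 with the other SWEET genes.

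**Figure D3:**
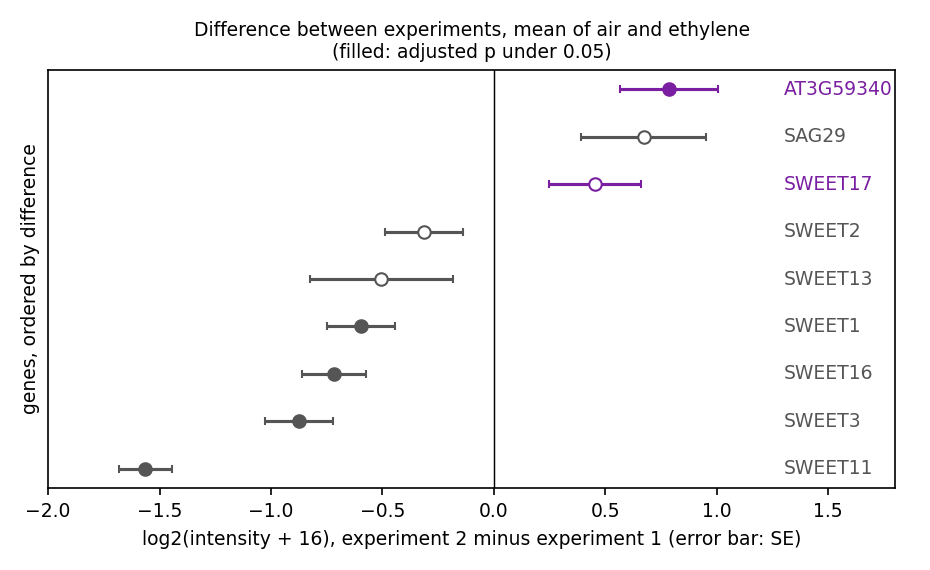
Experiment 2 minus experiment 1 difference of log2(intensity + 16), averaged over air and ethylene, with SE, for the 8 tested SWEET genes and AT3G59340; filled points had a limma adjusted p under 0.05. AT3G59340 lies highest at 0.79, SWEET17 is at 0.45, and SWEET11 lies lowest at −1.56.

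The genes next to each chosen gene were taken from the RefSeq annotation of TAIR10.1, 3 on each side. Around SWEET17, 4 of 6 neighbours were measured, and none passed the ethylene test. Over all tested probe sets 4.11% passed, so none among so few genes says little. The nearest on each side were DI21, a drought-induced gene, at −0.15 (SE 0.23, limma adjusted p = 0.873), and AT4G15930, a dynein light chain gene, at −0.19 (SE 0.19, adjusted p = 0.782). AT4G15890 and AT4G15940 were at −0.11 and 0.18. Around AT3G59340, 2 of 6 neighbours were measured. AT3G59350, a protein kinase gene and the next gene along, differed by −0.42 (SE 0.20, adjusted p = 0.389) and passed with the experiment as a block (0.0203), not with the random block (0.769). AT3G59370, the third gene along, related to vacuolar calcium-binding proteins, fell, as did 2.55% of all tested probe sets. Its intensities were 714.3, 854.1, 1448.2 and 1089.7 in air and 356.1, 262.8, 437.4 and 209.9 in ethylene. The filter limit was about 249.4 in intensity, so 209.9 lay under it and 262.8 just above it. The size of this fall thus rests in part on values near that limit. Ethylene minus air was −1.65 (SE 0.30, limma adjusted p = 0.0109). The call ended with the replicas as a random block (0.0817) and in experiment 1 alone (0.0766).

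To find the genes whose pattern was most like that of each chosen gene, the log2 values of each gene were centred on their own mean and compared over the 8 arrays by the root mean square difference. This measure is a description, and since the pattern is dominated by the fall with ethylene, genes near it necessarily fell too. Over 8545 other named genes the median distance was 1.31 from SWEET17 and 1.25 from AT3G59340, in log2 units. The chosen genes were close to each other, which choosing both for large falls with ethylene had largely set in advance. Their distance of 0.43 made SWEET17 the fifth nearest gene to AT3G59340, and AT3G59340 number 7 from SWEET17.

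Nearest to SWEET17 was AT4G25780, of the CAP family of secreted proteins (distance 0.36), with 3960.1 to 6056.7 in air and 1007.4 to 1198.2 in ethylene. TBL37, of the trichome birefringence-like family that acts on wall polysaccharides, followed at 0.38. AT3G59370, the neighbour of AT3G59340 described above, came next at 0.39. Like SWEET17 it was brightest on air 2-1 among the air arrays and on ethylene 2-1 among the ethylene arrays, and dimmest on air 1-1 and ethylene 2-2. AT5G12420, an acyltransferase gene of the wax ester synthase family (0.41), and AT2G16630, which encodes a proline-rich protein of the Ole e 1 and extensin type (0.42), completed the 5.

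Nearest to AT3G59340 was AT2G16630 (distance 0.27), with 4462.2, 4821.8, 6689.0 and 5890.9 in air and 1127.5, 1051.1, 1951.7 and 1788.1 in ethylene. In both groups its experiment 2 arrays were the brighter ones, as they were for AT3G59340. AT4G18280, which encodes a glycine-rich protein of the wall type (0.32), TBL37 (0.39) and AT5G35940, a lectin gene (0.39), came between it and SWEET17. AT2G16630 and TBL37 were thus among the nearest 5 of both genes.

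**Figure D4:**
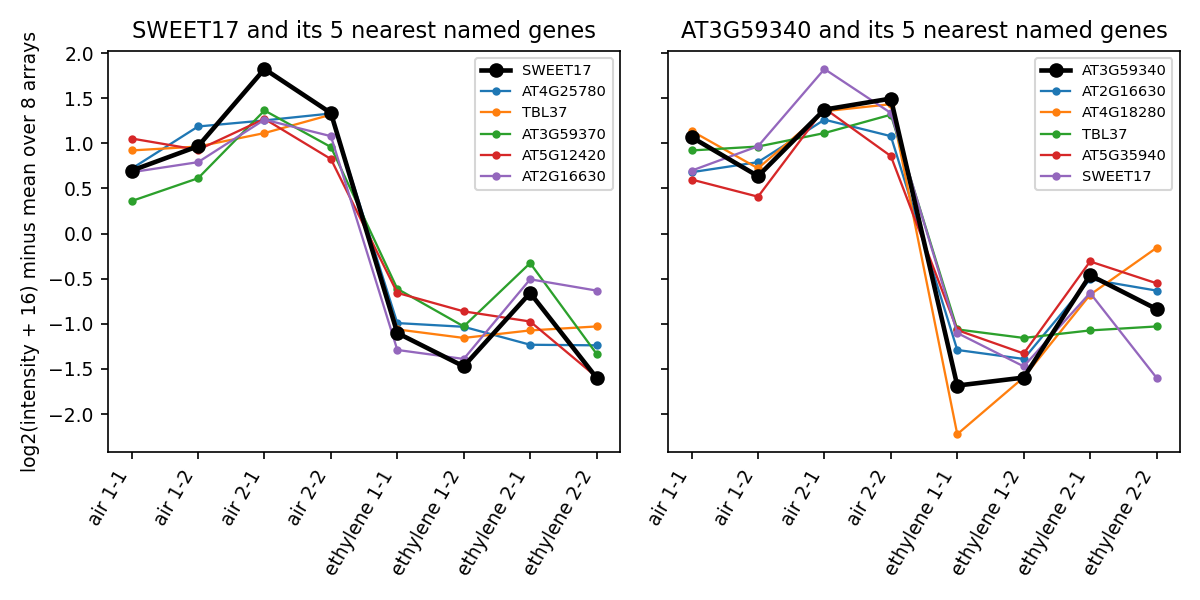
Log2(intensity + 16) minus its mean over the 8 arrays, for SWEET17 (left) and AT3G59340 (right) in black and for the 5 named genes nearest to each in colour. All lines drop between the air and ethylene arrays, and on ethylene 2-2 SWEET17 is low while AT3G59340 is closer to its level on ethylene 2-1.

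The samples were whole seedlings, so fewer cells that express a gene and less RNA per cell cannot be told apart. Markers of organs and cell types were sparsely measured. The 2 measured of 6 root hair and root epidermis markers, EXPA7 and EXPA18, had a summed intensity of 3163 to 5317 in air and 5572 to 6860 in ethylene. EXPA7 rose by 0.82 (SE 0.20, limma adjusted p = 0.0483), and its arrays did not overlap, as was so in this direction for 4.19% of all tested probe sets. This call was lost with the replicas as a random block (adjusted p = 0.295 with an estimated correlation). EXPA18 was at 0.44 (adjusted p = 0.266), with 0.0452 when the experiment was a block and 0.708 with the random block. The 2 measured of 6 root cortex and endodermis markers, AT1G62500 and AT4G28100, had 2022 to 2440 in air and 1443 to 1662 in ethylene. This sum mostly follows AT4G28100, whose mean in air was 1815 against 375.6 for AT1G62500, and the 2 genes went in opposite directions. AT4G28100 was at −0.64 (SE 0.18, limma adjusted p = 0.0776, 0.0151 with the experiment block and 0.395 with the random block) and AT1G62500 at 0.18. The single measured markers of shoot meristem (CLV3, of 6) and root cap (AT5G48130, of 4) were under the filter, with 8.3 to 182.8 and 20.2 to 233.2 over all arrays. No measured marker was at 0, and none of the 6 xylem and 5 phloem markers was measured. The part of these marker differences in the falls of SWEET17 and AT3G59340 was not tested.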

How the data were processed

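The authors' deposited table held a scaled linear intensity of 22810 probe sets on each array. Its mean after trimming 2% at each end was 2500.2 on every array, so each array appears to have been scaled to a common target. How probes were summarised and with which software and build is not given in the sources used here, and no coordinates are printed. Array medians lay between 832.6 and 980.2. The number of arrays limits the precision.

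Intensities were converted to log2(intensity + 16). The 64 control probe sets and the dimmest 30% were left out, and 15922 were tested with limma 3.58.1 (R 4.3.3, lmFit and eBayes with trend). The model was either on group alone or on the 4 combinations of experiment and group, after a check on simulated data. The simulated arrays had no shift between experiments and no correlation between replicas. The check therefore does not show how the tests behave where these are present. P-values were adjusted by Benjamini-Hochberg over all tested probe sets and called under 0.05. Python 3.11.15, pandas 2.3.3 and matplotlib 3.10.9 made the tables and plots. Probe sets were named where the annotation lists 1 gene (13513, of which 13436 matched the RefSeq table of TAIR10.1), while 503 with several genes and 8794 not listed, controls included, stayed unnamed. A gene with several was represented by the brightest.

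Named genes were the 2 chosen genes, passing list members (or the member with the smallest p), 3 neighbours on each side, the genes next in the order of differences and the 5 nearest profiles. Other list members are given for completeness. The members, lists and alternatives were chosen with earlier results of these data known. Sequences were not used here.

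The first number of a label marks an experiment shared by both groups. Deviations from the group means correlated by 0.327, 0.394, 0.593 and 0.464 in the same-numbered pairs. The correlation was at least 0.28 within an experiment and −0.25 or less between experiments. Deviations cancel out within each group, so the negative values follow from the positive ones and add nothing to them. Alternatives were other pseudocounts, filters and scalings, no trend, blocks, each experiment alone and leaving out each array. The random block joined the replicas of each group and experiment by an estimated correlation, with no term for the experiment.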

Additional observations from a re-analysis of the deposited data

Results flagged for a closer look

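Among 62 groups of 4 arrays (31 genes, air and ethylene), 1 held an array far from the rest, where chance alone gives about 1 in 20. It was TMT2, a vacuolar monosaccharide carrier gene, on ethylene 1-1. Its intensity there was 2859.1, against 2078.8, 2071.4 and 2061.4 on the other ethylene arrays, and the gap to the nearest was 0.978 of the range. Neither SWEET17 nor AT3G59340 had such an array.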

How the results depend on the processing

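The falls of SWEET17 and AT3G59340 ranged from −2.71 to −2.12 (20 alternatives) and from −2.52 to −2.08 (19), within 1 SD of the main values. Leaving out arrays could not turn their direction, since their air and ethylene values did not overlap. Filters, the trend setting and blocks cannot change these estimates. The genes were also chosen for this fall, so the ranges are a description and no support for it. AT3G59340 was under the filter when the dimmest 50% were left out.

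Counts of probe sets moved more. With the replicate block of 4 numbers 643 were higher and 1133 lower in ethylene. With the experiment as a block these were 689 and 1170, with replicas as a random block 119 and 130, and with experiment 2 alone 397 and 668. Without 1 array they lay between 162 and 203 higher and between 214 and 321 lower. The list genes called were 2, but 1 without a trend and with the random block, and 1 to 2 without 1 array. With the replicate block of 4 numbers 3 list genes passed, SWEET16 being added (adjusted p = 0.0058). In experiment 2, median scaling gave 1817 higher and 2980 lower probe sets, and without 1 array 1911 to 2850 were higher. The test of unequal ethylene effects passed for 1 probe set with median scaling and for 0 to 2 without 1 array. The shift of AT3G59340 between experiments lay between 0.68 and 0.89 without 1 array, and that of SWEET17 between 0.22 and 0.69. The cause of these moves was not tested.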
